A study of Mus musculus with 22 samples.

Results

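The p38 MAPK pathway was followed through 10 genes, all of them found under their own symbol among the 34489 genes counted in 22 bulk RNA-seq libraries of mouse pluripotent cells. The genes were chosen for their place in the pathway, with earlier results of these data known. They are the 4 p38 kinases Mapk14 (p38α), Mapk11 (p38β), Mapk12 (p38γ) and Mapk13 (p38δ), the MAP2 kinases Map2k3 and Map2k6, the MAP3 kinase Map3k5 (ASK1), and the effectors Mapkapk2, Mapkapk3 and Atf2. The libraries came from 1 naive embryonic stem cell line (Rex1-GFP, strain 129/Ola, 1 library), from primed epiblast stem cells (mEpiSCs) of the lines Oct4GIP (129/Ola) and 129/MSM (1 library each), and from cells derived from those primed lines by treatment. Oct4GIP carries a GFP and puromycin-resistance transgene under an Oct4 promoter and enhancer, so the reporter is on in both naive and primed cells. Primed cells were moved onto mouse embryonic fibroblast (MEF) feeders with FGF2 and Activin A for a day, and then kept for up to 16 days in Basal medium alone, in 2iL (the cytokine LIF plus small-molecule blockers of the kinases MEK and GSK3), in AICAR, an activator of the kinase AMPK, or in AICAR+LIF. All 8 of these culture libraries, 4 at day 8 (d8) and 4 at day 16 (d16), are Oct4GIP, with 1 library per treatment and day. The reverted cells were expanded in 2iL after d16, so all of them share that medium whatever they were first treated with. They gave 4 libraries at 2 or 3 passages (d16+2p and d16+3p, AICAR or AICAR+LIF, Oct4GIP) and 7 at 10 passages (d16+10p). Of the 7, 5 are Oct4GIP, first treated with AICAR or with A769662, each with and without LIF, or with metformin and LIF, where A769662 and metformin also activate AMPK. The other 2 are 129/MSM, treated with AICAR with and without LIF. No source says that the libraries of a group were separate derivations, so p-values measure the spread between these libraries.

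The p38 kinases are serine/threonine kinases that respond to stress and cytokines. MAP3 kinases such as ASK1 phosphorylate the MAP2 kinases MKK3 (Map2k3) and MKK6 (Map2k6), and these phosphorylate the threonine and the tyrosine of a Thr-Gly-Tyr motif in the activation loop of p38, which switches the kinase on. Active p38 in turn phosphorylates the kinases MK2 (Mapkapk2) and MK3 (Mapkapk3) and transcription factors such as ATF2. p38α can also be activated without a MAP2 kinase, by binding the adaptor TAB1, a route to which AMPK has been linked. Transcript counts give the supply of these components and carry no information on phosphorylation.

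The activation loop holds the motif that the MAP2 kinases phosphorylate, and its coding sequence is shown because the 4 kinases are relatives whose reads could be mixed up. The stretches below run 5′ to 3′ on the coding strand from the Asp-Phe-Gly codons to the Ala-Pro-Glu codons (GENCODE M21 transcripts, GRCm38), with the Thr-Gly-Tyr codons in capitals.
Mapk14 (chr17:28728363-28728437, plus strand): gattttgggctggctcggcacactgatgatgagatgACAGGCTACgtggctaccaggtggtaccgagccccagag
Mapk11 (chr15:89145836-89145910, minus strand): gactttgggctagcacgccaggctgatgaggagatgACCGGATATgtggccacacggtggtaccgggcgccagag
Mapk12 (chr15:89134646-89134720, minus strand): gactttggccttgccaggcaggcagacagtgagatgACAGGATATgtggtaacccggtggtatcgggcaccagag
Mapk13 (chr17:28776308-28776382, plus strand): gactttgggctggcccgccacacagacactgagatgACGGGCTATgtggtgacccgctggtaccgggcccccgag
In each gene the whole stretch of 75 bases lies in exon 7 of 12, and it is coding sequence. Between 56 (Mapk14 and Mapk12) and 61 (Mapk12 and Mapk13) of the 75 bases were identical, and the longest exact run shared anywhere along the annotated transcripts of 2 of these genes, not only in these stretches, was 15 to 20 bases.

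The 4 genes sit as 2 neighbouring pairs. Mapk12 (chr15:89130584-89140703) and Mapk11 (chr15:89142486-89149628) lie on the minus strand of chromosome 15 with 1782 bases between them, and Mapk14 (chr17:28691329-28748406) and Mapk13 (chr17:28769297-28780233) lie on the plus strand of chromosome 17 with 20890 bases between them. The other genes lie apart: Mapkapk2 at chr1:131053700-131097826 (minus strand), Atf2 at chr2:73816509-73892639 (minus), Mapkapk3 at chr9:107254927-107289877 (minus), Map3k5 at chr10:19934472-20142753 (plus), and Map2k3 and Map2k6 at chr11:60932033-60952811 and chr11:110399122-110525522 (both plus), all in GENCODE M21. Mapk12, Mapk11 and also Mapk13 of the other pair were lower in d16+10p than in primed cells, as described below. The promoters of the neighbours Mapk12 and Mapk11 are shown for this reason, and shared control of the pair was not tested. They are 300 bases from RefSeq (GRCm38.p6), written along the gene's strand from 250 bases before the start, with CpG dinucleotides in capitals.
Mapk12 (chr15:89140654-89140953): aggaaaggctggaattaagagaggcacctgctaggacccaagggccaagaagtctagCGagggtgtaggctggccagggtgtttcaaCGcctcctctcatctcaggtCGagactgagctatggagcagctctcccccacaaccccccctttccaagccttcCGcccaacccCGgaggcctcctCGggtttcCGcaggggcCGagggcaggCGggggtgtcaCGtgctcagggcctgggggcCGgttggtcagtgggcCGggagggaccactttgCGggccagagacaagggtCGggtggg
Mapk11 (chr15:89149557-89149856): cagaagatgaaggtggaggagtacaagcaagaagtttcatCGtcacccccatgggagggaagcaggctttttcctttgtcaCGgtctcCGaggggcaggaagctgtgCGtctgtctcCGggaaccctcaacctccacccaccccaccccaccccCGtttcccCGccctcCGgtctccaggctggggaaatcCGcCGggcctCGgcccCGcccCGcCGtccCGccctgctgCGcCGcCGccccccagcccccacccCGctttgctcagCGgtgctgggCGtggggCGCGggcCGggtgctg
The Mapk12 window held 14 CpG dinucleotides and the Mapk11 window 24, against a median of 7 over 32851 promoter windows of that length. The CRE motif TGACGTCA, to which ATF2 and its relatives bind, was in none of the 14 windows listed for the 10 genes on either strand, and in 1.79% of all windows. The AP-1 motif TGANTCA was in 1 of the 14, a window of Map2k6, and in 7.81% of all windows.

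The libraries held 438771 to 5290163 counted reads, and the AICAR+LIF and AICAR libraries at d8 were the smallest. Levels are given as CPM, the reads of a gene over the library total scaled by its TMM factor. The marker lists set the states apart: 7 naive markers summed to 2981 to 5156 CPM in the 11 reverted libraries and 4381 CPM in the naive library, against 13.7 to 79.0 CPM in the cultures and primed cells. The cultures were not pure. Their 10 fibroblast markers, which do not separate MEF feeders from any fibroblast-like cells formed in culture, summed to 2808 to 3354 CPM at d8 and 5519 to 49544 CPM at d16, with none of the 10 at a count of 0, against 34.6 CPM (primed Oct4GIP), 544 CPM (primed 129/MSM) and 7.73 to 93.9 CPM in the reverted libraries. In such bulk samples, fewer cells of a type and less RNA per cell cannot be told apart.

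Reverted cells at d16+10p were compared with primed mEpiSCs to ask how the pathway differs between the end points of reversion. The medium differed too, since only the reverted cells grew with LIF and the kinase inhibitors described above. State and medium thus cannot be told apart here or in the lists below, and the part of the medium was not tested. The pathway did not move as a block. Mapk14 and both MAP2 kinases were higher in reverted cells. The other 3 p38 kinases and the effector kinases Mapkapk2 and Mapkapk3 were lower, and Map3k5 and Atf2 did not pass the test. In all, 3 of the 10 genes were called higher and 5 lower by edgeR (adjusted p under 0.05), where 16.7% and 19.9% of the 18739 genes tested were called higher and lower. The median log2 change of the 10 was -0.75, against -0.01 over all genes.

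**Figure D1:**
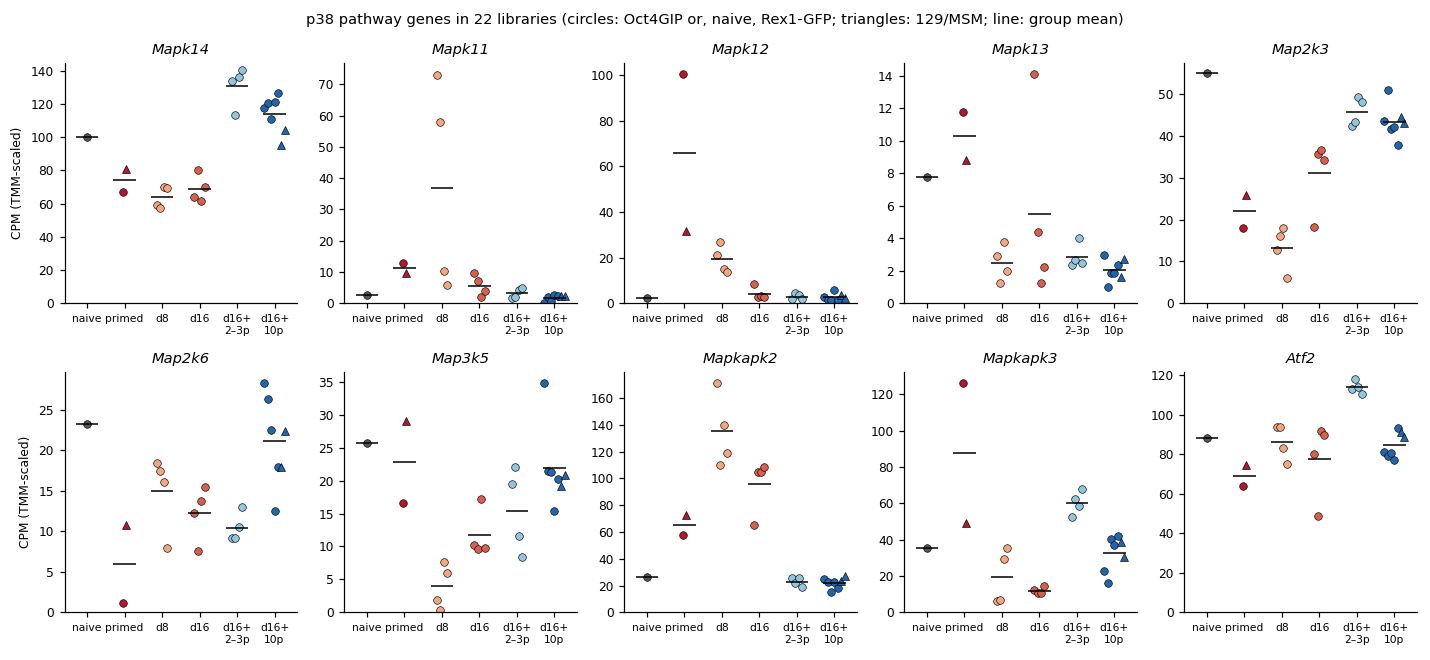
TMM-scaled CPM (y axis, linear, from 0) of the 10 genes in each of the 22 libraries, grouped along the x axis, with circles for Oct4GIP (and Rex1-GFP for naive), triangles for 129/MSM and a line at the group mean. Mapk12 is at 100 and 31.6 CPM in primed cells and at no more than 5.65 CPM in reverted cells, while Mapk14 is at 95.2 CPM or more in every reverted library and at 81.2 CPM or less in every primed and culture library.

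Mapk12, which encodes p38γ, showed the largest change among the 10. It stood at 100 CPM (273 reads) in primed Oct4GIP and 31.6 CPM (100 reads) in primed 129/MSM cells. In the 7 d16+10p libraries it ranged from 1.30 to 5.65 CPM with a median of 2.35 CPM, which is 4 to 15 reads. Every d16+10p library lay below both primed libraries, and the fitted log2 change was -4.61 (SE 0.46, adjusted p = 1.97e-07), a 24.5-fold difference. Its neighbour Mapk11 (p38β) stood at 12.9 and 9.79 CPM in the primed libraries of Oct4GIP and 129/MSM and at 0 to 2.64 CPM in the reverted ones, where the AICAR library had no read and the others 2 to 8. The log2 change of Mapk11 was -2.61 (SE 0.70, adjusted p = 0.0058). Mapk13 (p38δ) was low throughout, at 11.8 and 8.84 CPM in primed cells and 0.973 to 2.94 CPM in reverted cells (3 to 8 reads), a log2 change of -2.32 (SE 0.55, adjusted p = 0.00237).

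Mapk14, which encodes p38α, the form found in most cell types, went the other way. It stood at 66.9 and 81.2 CPM in the primed libraries of Oct4GIP and 129/MSM, and at 95.2 to 127 CPM in the 7 reverted libraries with a mean of 114 ± 10.999 CPM (SD, n = 7). The groups did not overlap, and the log2 change was 0.62 (SE 0.15, adjusted p = 0.00323), or 1.54-fold. The 2 lowest of the 7 were the 129/MSM libraries at 95.2 and 105 CPM.

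The MAP2 kinases were higher too. Map2k3 rose from 18.0 and 25.9 CPM in primed cells to 43.4 ± 3.96 CPM (SD, n = 7), a log2 change of 0.98 (SE 0.26, adjusted p = 0.00633). Map2k6 stood at 1.10 CPM, or 3 reads, in primed Oct4GIP and at 10.7 CPM in primed 129/MSM cells, against 12.4 to 28.3 CPM in the reverted libraries. Its log2 change was 1.79 (SE 0.50, adjusted p = 0.00746). In a fit of line by state, the Oct4GIP change of Map2k6 was 4.22 (SE 0.66) and the 129/MSM change 0.91 (SE 0.50), and the difference between the lines was 3.31 (SE 0.82, edgeR interaction, adjusted p = 0.04998 over 18739 genes, 258 of them called), a test added after the values were seen that rests on 1 primed library per line. Map3k5, an upstream kinase activated by oxidative stress, lay at 16.5 and 29.1 CPM in primed cells and 15.5 to 34.7 CPM in reverted cells, and its log2 change was -0.07 (SE 0.45, adjusted p = 0.93).

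Of the effectors, Mapkapk2 was lower in all 7 reverted libraries. This kinase, the best known p38 substrate, stood at 58.1 and 72.6 CPM in the primed libraries and at 22.1 ± 3.98 CPM (SD, n = 7) in reverted cells, with a log2 change of -1.57 (SE 0.21, adjusted p = 6.21e-06). Its close relative Mapkapk3 was at 126 CPM in primed Oct4GIP but 49.3 CPM in primed 129/MSM cells, and at 16.2 to 42.0 CPM in reverted cells, a log2 change of -1.42 (SE 0.41, adjusted p = 0.00974). Atf2 was at 64.0 and 74.5 CPM in primed and 77.3 to 93.2 CPM in reverted cells. These Atf2 ranges did not overlap, yet its log2 change of 0.29 (SE 0.18) did not pass (adjusted p = 0.225).

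With 2 primed libraries of different lines, single libraries weigh heavily. The primed lines were also kept differently, Oct4GIP on fibronectin in serum-free medium and 129/MSM on MEF feeders in medium with serum replacement. Line and culture condition thus cannot be told apart in primed cells. Without primed Oct4GIP, 3 genes stayed past the threshold, namely Mapk12 (-3.55, adjusted p = 5.55e-05), Mapkapk2 (-1.72, adjusted p = 5.62e-05) and Mapk13 (-2.10, adjusted p = 0.0362), while Mapk14 (0.49), Mapk11 (-2.40), Map2k3 (0.74), Map2k6 (0.97) and Mapkapk3 (-0.60) kept their sign and were no longer called. For the 129/MSM line in the fit of line by state, 2 were called, Mapk12 (-3.37, SE 0.73, adjusted p = 0.00302) and Mapkapk2 (-1.52, SE 0.32, adjusted p = 0.00264).

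Because the 4 kinases differ in length, their levels were compared with each other only after division by the length of their merged exons (4376 bases for Mapk14, 2887 for Mapk11, 3805 for Mapk12 and 3150 for Mapk13). On this scale of CPM per kb, Mapk14 made up 89.3% to 95.5% of the p38 kinase transcripts in the 11 reverted libraries and 84.9% in the naive library. In primed Oct4GIP cells Mapk14 made up 30.7% and Mapk12 52.9%, so that Mapk12 was the most abundant of the 4 there, whereas in primed 129/MSM cells Mapk14 led with 56.1% and Mapk12 held 25.1%. The sum over the 4 genes was 49.9 and 33.0 CPM per kb in the primed libraries of Oct4GIP and 129/MSM, and 24.1 to 31.0 CPM per kb at d16+10p. With the length of the longest coding transcript instead, a choice added after the values were seen, the shares of Mapk12 in these 2 primed libraries were 66.6% and 37.1%, and the leading gene was the same in both.

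**Figure D2:**
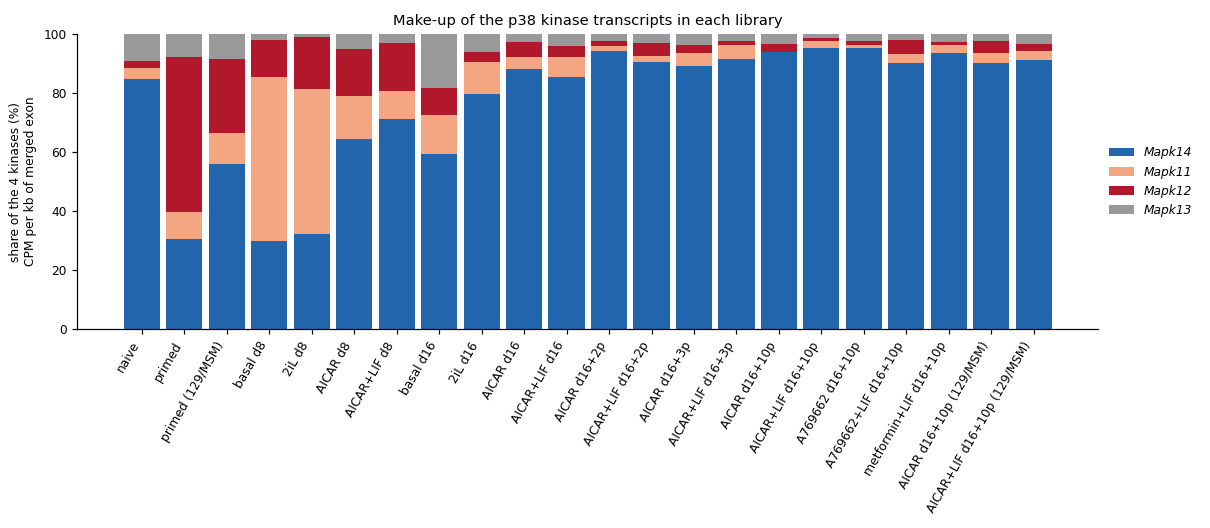
Share of each p38 kinase gene in the summed level of the 4 (y axis, %, from CPM per kb of merged exon), 1 bar per library. Mapk14 fills 89.3% to 95.5% of the bars of reverted cells, Mapk12 52.9% of primed Oct4GIP, and Mapk11 55.8% and 49.5% of the Basal and 2iL cultures at d8.

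The reverted cells were next compared between passages, which asks whether the pathway still changed during expansion in 2iL. Of the 10 genes, 9 were not called. Mapk12 averaged 2.93 ± 1.40 CPM at 2 to 3 passages (SD, n = 4) and 2.71 ± 1.56 CPM at 10 passages (SD, n = 7), a log2 change of -0.13 (SE 0.49). Mapkapk2 averaged 23.0 ± 3.11 and 22.1 ± 3.98 CPM, with a log2 change of -0.07 (SE 0.18). Atf2 was the only gene of the 10 called, lower at 10 passages (84.5 ± 6.42 against 114 ± 3.12 CPM, log2 change -0.43, SE 0.13, adjusted p = 0.0458), where 4.61% of all genes were called lower and 4.75% higher. The groups did not overlap for Atf2, but its adjusted p rose to as much as 0.161 among the alternatives, and leaving out any 1 library other than metformin+LIF at d16+10p ended the call. Map2k6 was at 9.12 to 13.001 CPM at 2 to 3 passages and 12.4 to 28.3 CPM at 10, a log2 difference of 1.01 (SE 0.35) that did not pass (adjusted p = 0.0802). It passed in Oct4GIP libraries alone (1.01, adjusted p = 0.0251), which matches the line of all the 2 to 3 passage libraries, in a fit of only the libraries compared (adjusted p = 0.00647) and with DESeq2 (adjusted p = 0.0278), and its adjusted p ranged up to 0.313 among the other alternatives. Mapkapk3 was at 52.4 to 67.8 and then 16.2 to 42.0 CPM, which do not overlap, with a log2 difference of -0.89 (SE 0.34, adjusted p = 0.114) that passed with limma voom (adjusted p = 0.0452) and in the fit of only the libraries compared (adjusted p = 0.0102). In Oct4GIP at 10 passages, AICAR and AICAR+LIF gave 28.3 and 26.3 CPM for Map2k6 and 23.0 and 16.2 CPM for Mapkapk3. The A769662 and metformin libraries gave 12.4 to 22.5 CPM and 36.9 to 42.0 CPM for these genes. The 129/MSM libraries with AICAR and AICAR+LIF gave 18.0 and 22.3 CPM for Map2k6 and 38.8 and 30.2 CPM for Mapkapk3. The part of the activator was not tested.

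The naive Rex1-GFP library, a single library without a test, was set beside these values. Its Mapk14 (100 CPM), Mapkapk2 (26.7 CPM), Map2k6 (23.3 CPM), Map3k5 (25.8 CPM), Mapkapk3 (35.4 CPM) and Atf2 (88.4 CPM) fell between the lowest and the highest d16+10p library. Its Mapk12, at 2.48 CPM or 8 reads, lay there too. Its Map2k3 (54.9 CPM), Mapk13 (7.76 CPM, 25 reads) and Mapk11 (2.79 CPM, 9 reads) were above all 7, for Mapk11 by a margin of less than 1 read's worth.

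The cultures on feeders were compared with primed cells to see what the pathway looked like during treatment. Of the 10 genes, 1 was called higher and 4 lower over the 8 cultures together, where 18.1% and 19.4% of all genes were called. Mapk12 had already dropped, from 66.0 CPM on average in primed cells to 13.8 to 27.0 CPM at d8 and 2.63 to 8.48 CPM at d16. Its log2 change over both days was -2.80 (SE 0.43, adjusted p = 5.57e-05), and every culture lay below both primed libraries. Mapkapk3 was lower in all 8 cultures than in both primed libraries, at 6.15 to 35.6 CPM (log2 change -2.64, SE 0.40, adjusted p = 5.49e-05). Map3k5 was also lower, at 0.415 to 17.2 CPM (log2 change -1.95, SE 0.45, adjusted p = 0.00219), with AICAR at d16 just above primed Oct4GIP. Mapk13 was lower too (log2 change -1.45, SE 0.55, adjusted p = 0.042), although the Basal library at d16, at 14.1 CPM, exceeded both primed libraries. The call of Mapk13 was lost without either primed library, without Basal or 2iL at d8, or without 2iL or AICAR+LIF at d16 (-1.23 to -1.70), and that of Map3k5 without primed 129/MSM (-1.54, adjusted p = 0.0543).

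Mapkapk2 was the gene called higher, at 65.4 to 172 CPM in the cultures (log2 change 0.80, SE 0.23, adjusted p = 0.00858), with only Basal at d16 below primed 129/MSM. Its mean thus stood above primed cells during treatment and below them after expansion. Against primed cells, the d16 cultures alone gave calls for 2 of the 5 genes, Mapk12 (-3.87) and Mapkapk3 (-2.86), with Mapkapk2 at 0.55 (adjusted p = 0.0698), Map3k5 at -0.96 (adjusted p = 0.117) and Mapk13 at -0.84 (adjusted p = 0.271). Without primed Oct4GIP, Mapk12, Map3k5 and Mapkapk3 stayed called, while Mapkapk2 was lost (0.65, SE 0.30, adjusted p = 0.128), as it was in a fit of only the libraries compared (0.73, adjusted p = 0.0524). Mapk14 (-0.16), Map2k3 (-0.08), Atf2 (0.25), Mapk11 (0.40) and Map2k6 (1.20, adjusted p = 0.0564) were not called. For Map2k6 the 2 primed lines differ, at 1.10 CPM in Oct4GIP and 10.7 CPM in 129/MSM. The cultures, all of them Oct4GIP, were at 7.62 to 18.5 CPM. Map2k6 was called in 7 of 20 alternatives, among them DESeq2 and limma voom, with changes of 0.37 to 3.55 over the 20. These comparisons share the primed libraries with the one above. Fibroblast markers were higher in all 8 cultures than in both primed libraries, as given above, and their part in these differences was not tested.

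Between the d16 cultures and reverted cells after 2 to 3 passages, 4 of the 10 genes were called higher and 1 lower, against 33.2% and 37.9% of all genes. All 4 reverted libraries here came from AICAR or AICAR+LIF, while the d16 group also holds Basal medium and 2iL. The paper reports no reversion for these other cultures. The rises and falls below thus compare groups of libraries and do not follow the same cells over time. Mapkapk3 rose from 11.99 ± 1.97 to 60.2 ± 6.51 CPM (SD, n = 4 each, log2 change 2.32, SE 0.42, adjusted p = 5.97e-05). Mapk14 rose from 69.1 ± 8.43 to 131 ± 12.2 CPM (log2 change 0.93, SE 0.13, adjusted p = 2.91e-06). Atf2 (0.55, adjusted p = 0.00325) and Map2k3 (0.56, adjusted p = 0.0255) were higher by less, and the call of Map2k3 was lost without any 1 of the 4 reverted libraries or without Basal at d16 (0.36 to 0.52). Mapkapk2 fell from 96.0 ± 20.5 to 23.0 ± 3.11 CPM (log2 change -2.06, SE 0.20, adjusted p = 2.58e-08). All 5 of these genes had groups that did not overlap, but the share of all genes without overlap was not computed. Each of the 3 minor p38 kinases had overlapping groups and was not called. The median log2 change over all genes was -0.15 here, and the fibroblast markers fell from 5519 CPM or more to 93.9 CPM or less, whose part was not tested.

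**Figure D3:**
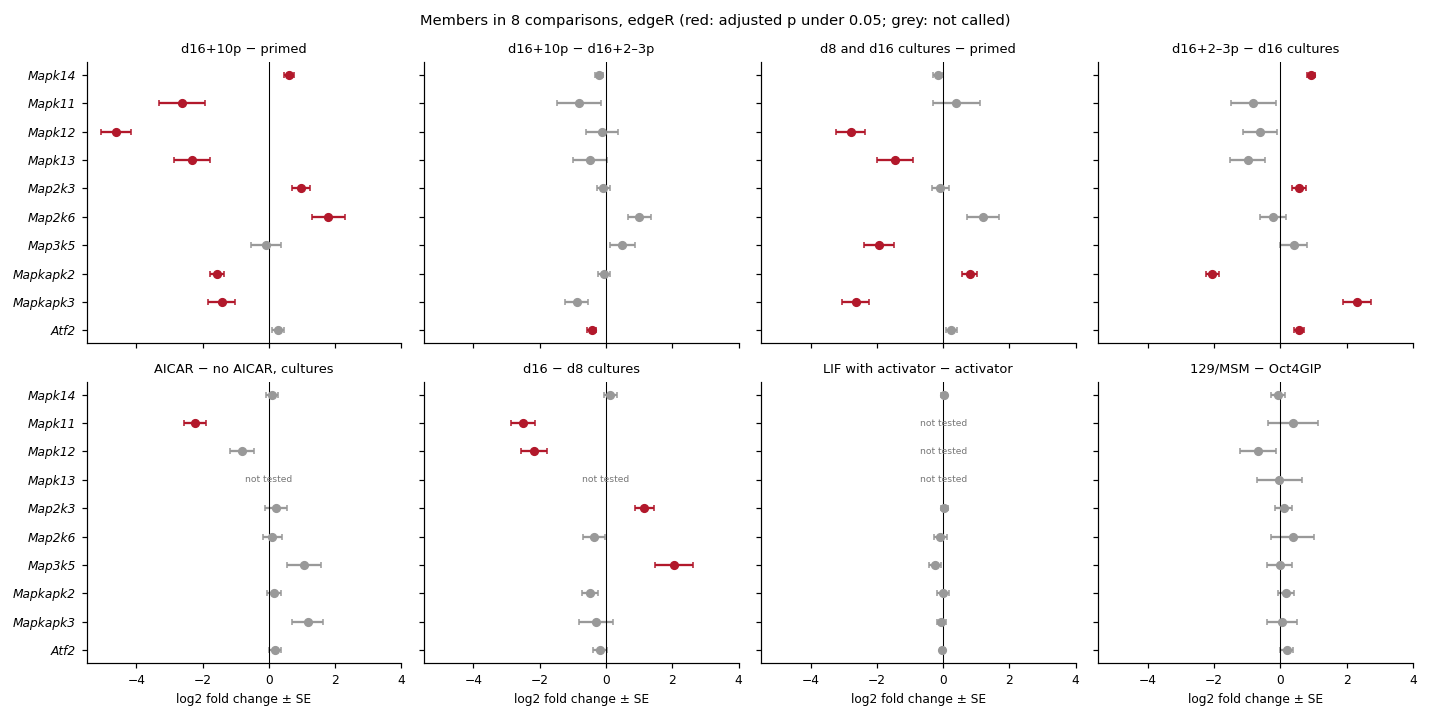
Log2 fold change with its standard error (x axis) of the 10 genes (y axis) in the 8 comparisons, from edgeR, with red for an adjusted p under 0.05 and grey for the rest. Mapk12 lies at -4.61 and Mapk14 at 0.62 between d16+10p and primed cells. Mapkapk2 is on the right in cultures against primed cells (0.80) and on the left after expansion (-2.06). No gene is red for LIF given before expansion or for the line.

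The 4 AICAR cultures were compared with the 4 cultures without AICAR, with the day as a covariate. The AICAR arm is AICAR and AICAR+LIF and the other arm Basal medium and 2iL, so the MEK and GSK3 inhibitors of 2iL are part of the difference and AICAR is not isolated. Mapk11 was the only 1 of 9 genes tested (Mapk13 was too low) that was called, where 3.54% of 14026 genes were called higher and 6.06% lower. At d8, Mapk11 stood at 73.1 CPM in Basal medium (202 reads) and 58.1 CPM in 2iL (140 reads), but at 10.4 CPM with AICAR (11 reads) and 5.93 CPM with AICAR+LIF (3 reads). At d16 the same treatments gave 9.61, 7.22, 1.87 and 3.76 CPM. Within each day both AICAR libraries lay below both others, and the log2 change was -2.23 (SE 0.34, adjusted p = 0.0111). On the length scale Mapk11 was the leading p38 kinase in the Basal (55.8%) and 2iL (49.5%) cultures at d8, and Mapk14 led in every other culture, with 59.2% to 88.3%.

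The d8 libraries with AICAR were the shallowest of the series. Leaving both out gave a log2 change of -1.63 for Mapk11 (SE 0.40, adjusted p = 0.119), with 0 genes of 15090 called in all, and leaving out the AICAR library at d8 alone gave -2.14 (adjusted p = 0.0529). At d16 alone the change was -1.65 (SE 0.41, adjusted p = 0.0722).

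Mapkapk3 was higher with AICAR at d8. It was at 6.15 and 7.05 CPM in Basal medium and 2iL and at 29.4 and 35.6 CPM with AICAR and AICAR+LIF, whereas at d16 it was at 10.4 to 14.7 CPM in all 4. In a fit of AICAR by day, added after the values were seen, its change was 2.41 at d8 (SE 0.35, adjusted p = 0.0104) and 0.11 at d16 (SE 0.32, adjusted p = 0.903). The difference between the days was -2.31 (SE 0.47), which did not pass (adjusted p = 0.0987). Map3k5 was at 1.81 and 0.415 CPM without AICAR at d8, on 5 reads and 1 read, and at 7.58 and 5.93 CPM with it, on 8 and 3 reads, with a difference of 2.68 at d8 in the same fit (SE 0.71) that did not pass (adjusted p = 0.0529). Fibroblast markers summed to 3237 and 3354 CPM in Basal medium and 2iL at d8 and to 3201 and 2808 CPM with AICAR and AICAR+LIF. At d16 they were at 5519, 49544, 16809 and 18841 CPM in the same order, and their part was not tested.

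**Figure D4:**
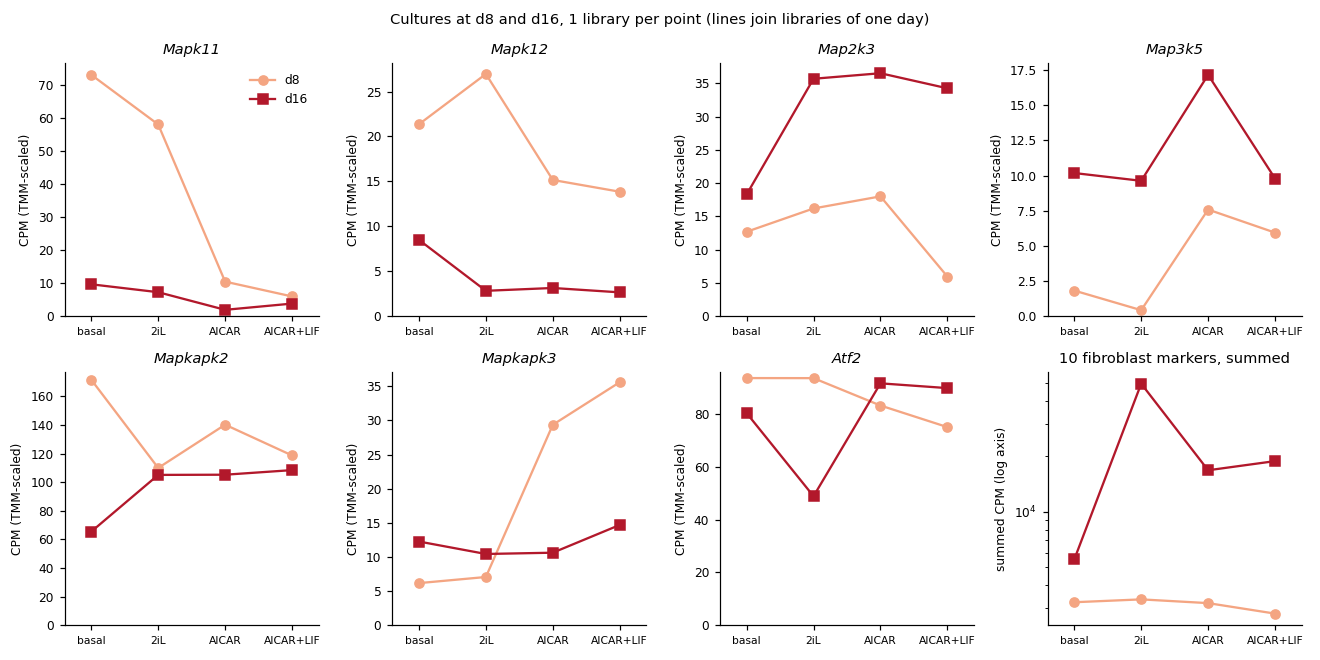
Levels of 7 genes (y axis, TMM-scaled CPM, linear) and of 10 summed fibroblast markers (CPM, log axis) in the 4 treatments (x axis) at d8 (circles) and d16 (squares), 1 library per point. Mapk11 is at 73.1 and 58.1 CPM in the Basal and 2iL cultures at d8 and at 10.4 CPM or less in the other 6, and Mapkapk3 is at 29.4 and 35.6 CPM in the AICAR cultures at d8 and at 14.7 CPM or less elsewhere.

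From d8 to d16, with the treatment as a covariate, 2 of the same 9 genes tested were called higher and 2 lower, where 14.7% and 9.5% of all genes were. Mapk11 fell (log2 change -2.50, SE 0.36, adjusted p = 0.00743), in all 4 treatments. Mapk12 fell from 19.3 ± 6.05 to 4.26 ± 2.82 CPM (SD, n = 4 each, log2 change -2.17, SE 0.39, adjusted p = 0.0124), and the days did not overlap. Mapkapk2 did not overlap either (110 to 172 CPM and then 65.4 to 108 CPM) but was not called (-0.49, SE 0.24, adjusted p = 0.176). Map2k3 rose from 13.2 ± 5.32 to 31.2 ± 8.65 CPM (log2 change 1.16, SE 0.29, adjusted p = 0.0326), and Map3k5 from 3.93 ± 3.37 to 11.7 ± 3.66 CPM (log2 change 2.04, SE 0.57, adjusted p = 0.0428). The calls of Mapk11 and Mapk12 held without both shallow libraries, with changes of -2.90 and -2.03. Map3k5 gave 3.15 (adjusted p = 0.0194) and Map2k3 0.90 (adjusted p = 0.1) in that setting. Leaving out any 1 of the 8 libraries ended the call of Map2k3 (0.94 to 1.37), and any 1 except AICAR+LIF at d8 and at d16 that of Map3k5 (1.52 to 2.52).

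LIF given with the activator before expansion was tested in the 5 pairs of reverted libraries whose titles differ only by it. Both members of each pair were then expanded in medium with LIF. The test thus asks what remained of the earlier difference, and the effect of LIF during treatment was not tested. Of the 7 genes tested (all but Mapk11, Mapk12 and Mapk13), 0 were called by edgeR, where 0 of 12821 genes were called and 310 had an unadjusted p under 0.05. DESeq2 and limma voom also called 0 genes, with 86 and 335 at an unadjusted p under 0.05, while 44 genes and none of the 10 were called with no filter on low counts. The log2 differences lay between -0.26 (Map3k5, SE 0.18) and 0.04 (Map2k3, SE 0.10), with Mapk14 at 0.02 (SE 0.09). Between 129/MSM and Oct4GIP cells, with 3 libraries each, none of the 10 was called (34 of 15632 genes were, 0.166% higher and 0.0512% lower), and DESeq2, which called 210 genes, called none of them either. Mapkapk3 was called when either primed library was left out (0.83 in both cases, adjusted p = 0.0406 without Oct4GIP and 0.0331 without 129/MSM). In both cases the line difference of Mapkapk3 rests on the same d16+10p libraries, since the primed library that remained had no partner. Mapkapk3 was lower in primed 129/MSM than in primed Oct4GIP (49.3 against 126 CPM). At d16+10p it was higher in 129/MSM, at 38.8 and 30.2 CPM with AICAR and AICAR+LIF against 23.0 and 16.2 CPM in Oct4GIP. Its difference in the main fit was 0.05. None of the 10 had an unadjusted p under 0.05 by edgeR in the main fit of either comparison. The lines differed most for Mapk12 (-0.69, SE 0.55), which follows its levels of 31.6 and 100 CPM in primed cells.

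The other pathway genes were taken from lists by role. Of 44 other p38 pathway genes with a single row in the table, all were tested between d16+10p and primed cells, 7 were called higher and 15 lower, with a median log2 change of -0.30 against -0.01 over all genes. Over all genes 16.7% were called higher and 19.9% lower in this comparison, which is the background for the counts by role that follow. Among 11 further MAP3 kinases and upstream kinases, 6 fell and 0 rose. They include Map3k20 (ZAK, a sensor of stalled ribosomes), which went from 103 to 25.9 CPM, Taok3 from 53.1 to 14.6 CPM, and Map3k4, a partner of the GADD45 proteins, from 161 to 66.3 CPM.

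Of 12 adaptors and activators, 4 were higher and 3 lower. Daxx, which binds ASK1, rose from 40.1 to 90.4 CPM (log2 change 1.17, SE 0.15, adjusted p = 5.25e-06). The stress-induced Gadd45b rose from 6.60 to 20.3 CPM (adjusted p = 0.0084), whereas its relatives Gadd45a and Gadd45g fell by 1.75 and 2.97 on the log2 scale. Tab1, the adaptor that binds p38α, was at 28.0 CPM in primed and 19.6 ± 5.36 CPM (SD, n = 7) in d16+10p cells and was not called, but it rose between 2 to 3 and 10 passages, from 10.8 to 19.6 CPM (log2 change 0.84, SE 0.23, adjusted p = 0.0223).

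Of 14 other effectors and substrates, 2 rose and 4 fell, where 16.7% and 19.9% of all genes did. Hspb1, the small heat shock protein that MK2 phosphorylates, rose from 12.5 and 12.6 CPM to 217 ± 40.9 CPM (SD, n = 7, log2 change 4.11, SE 0.84, adjusted p = 0.000618), and the naive library had 168 CPM. Mef2c, a transcription factor activated by p38, had 1 and 19 reads in the primed libraries and at most 1 read in a d16+10p library (adjusted p = 0.000344). Atf1, a relative of CREB, rose from 56.3 to 109 CPM (log2 change 0.95, SE 0.30, adjusted p = 0.0179). Among 7 phosphatases, Dusp1 rose (1.19, SE 0.42, adjusted p = 0.0295) and Dusp8 and Dusp16 fell by 3.00 and 1.16 on the log2 scale.

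**Figure D5:**
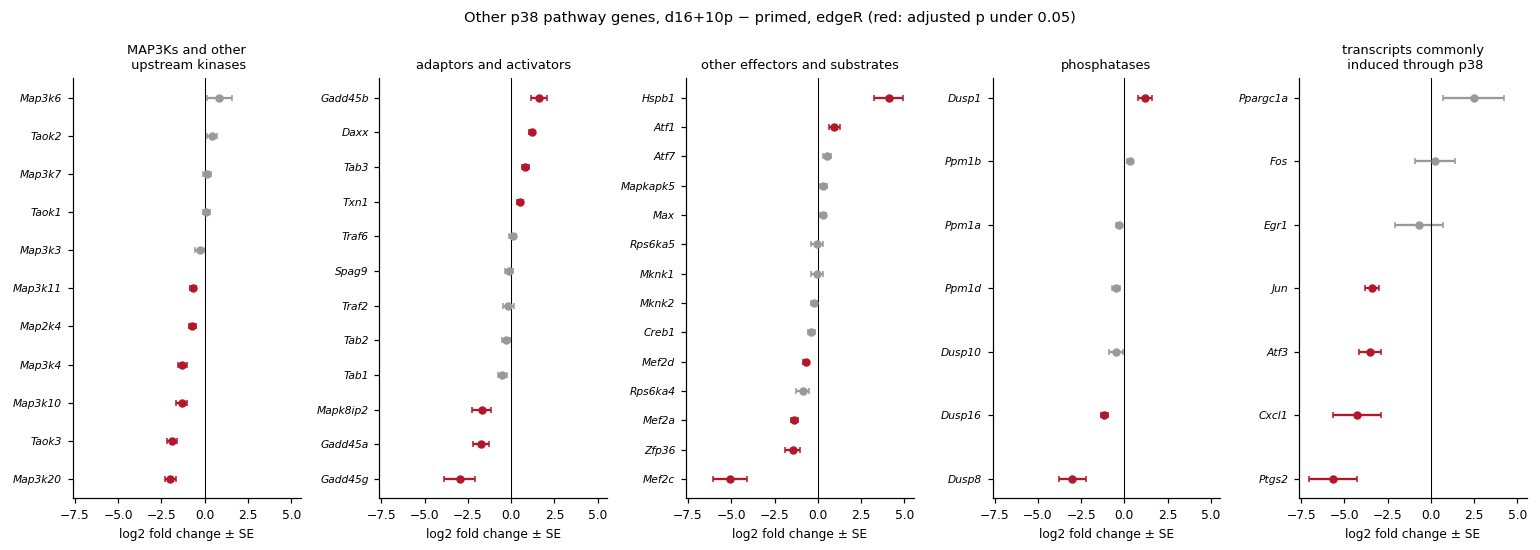
Log2 fold change with its standard error (x axis) between d16+10p and primed cells for the other p38 pathway genes (y axis), 1 panel per role, red where the adjusted p of edgeR was under 0.05. Of the 11 upstream kinases 6 are red and left of 0, and of the 7 tested transcripts commonly induced through p38 Jun, Atf3, Cxcl1 and Ptgs2 are red and left of 0.

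Transcripts that p38 signalling commonly induces were followed as a separate list of 10, of which 9 had a single row and 7 were tested. In d16+10p cells 4 of these 7 were lower than in primed cells and 0 higher, beside 19.9% and 16.7% of all genes. The AP-1 subunit Jun was at 41.6 and 98.2 CPM in primed libraries and 1.57 to 13.6 CPM in reverted ones (log2 change -3.41, SE 0.41, adjusted p = 1.78e-06). Atf3, a stress-induced repressor, was at 3.996 ± 2.45 CPM (SD, n = 7) against 73.6 CPM in primed Oct4GIP and 18.0 CPM in primed 129/MSM. Ptgs2 and the chemokine Cxcl1, also called, had 1 and 0 reads in primed Oct4GIP and 62 and 5 in primed 129/MSM, and at most 1 and 0 in any d16+10p library. Their reads in primed cells thus came almost wholly from 129/MSM, the primed library with the higher fibroblast markers (544 against 34.6 CPM), whose part was not tested. All 7 were lower at 2 to 3 passages than in the d16 cultures, as were 37.9% of all genes, and in those cultures Jun stood at 396 to 587 CPM and the fibroblast markers were high, whose part was not tested. Fos, the partner of Jun in AP-1, averaged 4.29 CPM at 2 to 3 passages and 828 CPM in the d16 cultures (log2 change -7.59, SE 1.19, adjusted p = 1.09e-05), and Egr1, an immediate early gene, 15.6 and 715 CPM (log2 change -5.53, SE 1.49, adjusted p = 0.0025). Other pathways induce these genes too. Reverted cells grew with the MEK inhibitor of 2iL, which primed cells and the d16 cultures other than 2iL lacked. The part of this inhibitor was not tested. In the cultures, AICAR went with more Ptgs2, the inducible cyclooxygenase (82.5 against 9.51 CPM, log2 change 3.01, SE 0.59, adjusted p = 0.0224), and with less Gadd45g (43.8 against 152 CPM, log2 change -1.77, SE 0.32, adjusted p = 0.017) and Ppargc1a (11.3 against 26.3 CPM, log2 change -1.24, SE 0.31, adjusted p = 0.0416). None of these 3 calls held without both shallow d8 libraries, where no gene was called.

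The other MAP kinase modules were set beside p38 in the cultures. Of 13 genes of the ERK, JNK and ERK5 modules, 1 was higher and 2 lower there than in primed cells, where 18.1% and 19.4% of all genes were. The gene that rose was Mapk10 (JNK3), at a mean of 93.4 CPM against 1.71 CPM, and those that fell were Map2k1 (MEK1), at 74.6 against 115 CPM, and Braf, at 67.4 against 104 CPM.

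As a description of likeness over the 22 libraries, with genes of a mean log2 CPM of at least 3, Mapk14 was closest to Phb and Mrpl12 (Pearson's r of log2 CPM 0.964 and 0.961). Mapk12 was closest to Chd6, Nabp2 and Mta1 (0.881, 0.880 and 0.876) and Mapk11 to Polb, Phf21b and Wiz (0.898, 0.884 and 0.874). Mapk13 was closest to Nek1, Zfand1 and Kcnk1 (0.794, 0.789 and 0.744), Map2k6 to Lama1, Relch and Recql (0.880, 0.878 and 0.822) and Map3k5 to Lamc1, Zswim7 and Syngr2 (0.901, 0.896 and 0.896). Among the 10 themselves, Mapk14 and Mapkapk2 were the most opposed (r = -0.903), and Map2k3 was closest to Mapk14 (0.743). The points share culture state, fibroblast marker level and depth.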

How the data were processed

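RNA-seq libraries (TruSeq stranded mRNA, single reads) were counted by the authors per gene and per transcript. Reads were demultiplexed with bcl2fastq and mapped with Bowtie2 2.2.5 to Ensembl GRCm38 cDNA and ncRNA sequences. The deposited values are raw read counts, with no normalization. For each of the 10 genes the transcript counts added up to the gene count in all 22 libraries. By default Bowtie2 places a read that fits several isoforms equally well on one of them at random (the largest of 10 Mapk14 transcripts held 18.6%), so only gene counts were used. A file with the number of detected genes was not used, and all count columns were matched to a sample (0 left over).

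Groups came from the sample titles. Genes were filtered with filterByExpr, scaled by TMM and tested with edgeR 4.0.16 (quasi-likelihood, Benjamini-Hochberg threshold 0.05, R 4.3.3). DESeq2 1.42.0 and limma 3.58.1 (voom) served as alternatives. The 4 comparisons of states used a 6-group fit of 22 libraries, the others a fit of the libraries compared with day, treatment or pair as covariate. A library that stands alone in its group was assumed to vary like the others. The pipeline was tested on simulated data. Other alternatives were no scaling factors, no filter, at least 10 counts in every library, thinning to 438771 counts, and leaving out each library. Positions and lengths are from GENCODE M21 (GRCm38), promoters from RefSeq (GRCm38.p6). The 2 libraries of a group that were most alike (AICAR and AICAR+LIF at d16+2p) still differed by more than counting noise (chi-square per degree of freedom 1.34), so none were merged. At 3 counts, a library of the smallest size gives 5.93 CPM. Ddit3 (2 rows) and Tnf were not analysed here.

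The 10 genes and the other lists were chosen with earlier results of these data known. All 10 were named in each comparison. Of the other lists, up to 5 genes in each direction with the largest change among those called were eligible to be named, with counts for the rest. Others named to complete a count or a family (Map3k20, Taok3, Map3k4, Gadd45a, Gadd45g, Dusp8, Dusp16, Tab1 and Braf) were chosen after their values were seen. For the p38 kinases, Map2k6 and Map3k5, up to 3 genes with the highest r were given. Results for some genes are not reported here.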

Additional observations from a re-analysis of the deposited data

Results flagged for a closer look

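Of 40 sets of values of the 10 genes in groups of 4 to 10 libraries, 5 had a library far from the others by Dixon's criterion. Chance gives this in about 1 set in 20 among replicates. These groups mix treatments, so an outlying library and a treatment that differs cannot be told apart. The Basal library at d16 was such a library for 3 genes: high for Mapk12 (8.48 CPM, the next 3.12 CPM) and low for Map2k3 (18.3 CPM, the next 34.2 CPM) and Mapkapk2 (65.4 CPM, the next 105 CPM). It had the lowest sum of fibroblast markers of the 4 (5519 CPM, the others 16809 CPM or more), whose part was not tested. Map3k5 was high in the AICAR library at d16 (17.2 CPM, the next 10.2 CPM) and in the AICAR library at d16+10p (34.7 CPM, the next 21.4 CPM), which is the smallest of its group in total counts.

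The change of Map2k6 from primed to d16+10p cells differed between the lines by 3.31 on the log2 scale (edgeR interaction, SE 0.82, adjusted p = 0.04998), with 3 reads in primed Oct4GIP cells and 34 in primed 129/MSM cells. Each line has 1 primed library and its own culture condition in the primed state, so line, culture condition and library cannot be told apart.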

How the results depend on the processing

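Over the 8 comparisons, 1247 alternative values of the 10 genes were computed. In 1071 the side of the threshold and the sign were as reported, 70 lost and 19 gained a call, 0 called values changed sign, and 87 changes too small to be called did. Of 24 calls, 10 held under every alternative in which the gene was tested: Mapk12 and Mapkapk2 between d16+10p and primed cells, Mapk12 and Mapkapk3 between cultures and primed cells, Mapk14, Mapkapk2, Mapkapk3 and Atf2 between d16+2-3p cells and d16 cultures, and Mapk11 and Mapk12 between d16 and d8. The titles give no replicate numbers. Libraries were matched by their titles for LIF (5 pairs) and by treatment for the days and the lines. The cause of the changes below was not tested beyond the fewer genes or libraries each setting leaves.

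With at least 10 counts in every library, d16+10p against primed cells gave 2880 genes and 3 of the 10 (6863 and 8 as reported), d16+10p against d16+2-3p gave 856 genes (1753), cultures against primed 3477 and 2 (7032 and 5), d16+2-3p against d16 cultures 5557 (13318), AICAR 792 and 0 (1347 and 1), d16 against d8 2218 and 0 (3398 and 4), and the lines 4 (34). Thinning gave 3562 and 4, 618 and 0, 3888, 8584, 673 and 0, 1784 and 0, and 104 in the same order. With no filter, AICAR gave 3143 genes and 2 of the 10, LIF 44 genes, the lines 929, and the passages 0 of the 10. Without TMM factors the passages gave 0 of the 10. The split of calls then moved to 776 higher and 650 lower for AICAR (497 and 850 as reported) and to 1727 and 1807 for d16 against d8 (2066 and 1332), where the median of all genes shifted from 0.01 to -0.14. DESeq2 gave 2 of the 10 for the passages, 2140 genes for AICAR and 210 for the lines (116 higher, 94 lower, against 26 and 8), and limma voom 2 of the 10 for the passages. Using only the libraries compared gave 3002 genes and 3 of the 10 for the passages and 4595 and 3 for cultures against primed, and Oct4GIP alone 2 of the 10 for the passages. AICAR gave 37 genes and 0 of the 10 with no day term, 372 and 0 at d16 within a fit by day, and 762 genes with 4 treatments. The lines gave 0 genes with no treatment term and 1051 in the reverted libraries alone. Among settings added after seeing the data, 129/MSM alone gave 3370 genes and 2 of the 10 against primed, the d16 cultures alone 2 of the 10, AICAR 0 genes and 0 of the 10 without both shallow d8 libraries and 2 of the 10 at d8.

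Leaving out 1 library gave 4462 to 6766 genes and 3 to 8 of the 10 (d16+10p against primed), 939 to 1847 and 0 to 1 (passages), 4115 to 7260 and 3 to 6 (cultures against primed), 12629 to 12953 and 4 to 6 (d16+2-3p against d16 cultures), 245 to 2654 and 0 to 1 (AICAR), 1148 to 2700 and 2 to 3 (d16 against d8), 0 and 0 (LIF), and 30 to 1699 and 0 to 1 (lines). The lowest counts of genes came without primed Oct4GIP (d16+10p and cultures against primed), without AICAR at d8 (AICAR) and without Basal at d16 (d16 against d8), and the highest for AICAR came without 2iL at d16. The lines gave 1699 genes without primed Oct4GIP and 1567 without primed 129/MSM. Depth limits the d8 values with AICAR, where Mapk11, Map2k3 and Map3k5 rest on 3 to 19 reads.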
